A study of Mus musculus with 7899 samples.

Results

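This section compares single sorted β cells of mice at puerperium day 14 with lactation, labelled P14L, with β cells of pregnant mice at the gestation day labelled G14.5, past the middle of mouse pregnancy. The members were all cells of the pregnancy time course whose column names carry these labels, and reads were added up within each replicate. That gave 270 cells in 3 P14L libraries (38, 126 and 106 cells) and 317 cells in 3 G14.5 libraries (121, 88 and 108 cells), 587 of 3481 cells in the time course and of 7897 single cells in the series. The time course holds 16 groups and 35 summed libraries, from non-pregnant mice (G0) through gestation to puerperium days 2, 7 and 14, each puerperium day with an L and an NL group. L and NL are taken here as lactating and non-lactating, a reading the labels leave unstated. All 16 groups are female C57BL/6J mice on standard diet, with no genotype and no drug named for them, and the labels give no age. For 1 pair of gene lists, wild-type G0 and G14.5 cells from the experiments with Acss2, Stat3 and p300 knockout mice were also used, of the same strain, sex and diet and labelled WT for the targeted gene. What alleles or Cre those wild types carry is not stated in the labels. Islets were released with collagenase, picked by hand and dissociated with trypsin, and cells were sorted into plates for Smart-seq3xpress, a full-length plate-based RNA-seq protocol. Which markers set the gate is not stated in the labels. Replicates 1 and 2 are labelled biological replicates and replicate 3 of P14L and G14.5 only replicates, so the spread behind the p-values may in part be technical.

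In pregnancy, placental lactogen and prolactin act on β cells through the prolactin receptor, the kinase JAK2 and the transcription factor STAT5, and β cells enlarge, divide and secrete more insulin. One of the most strongly induced genes is Tph1, which makes serotonin, a local signal for β-cell growth in the pregnant islet. After delivery placental hormones are lost, but suckling keeps pituitary prolactin high. Insulin is folded and oxidised in the endoplasmic reticulum (ER), so the machinery that moves proteins into the ER, folds them and exports them follows the secretory load of the cell.

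Library depth, purity and base composition bear on what follows. The summed libraries held 63591493 to 181405413 reads for P14L and 105390361 to 124373454 for G14.5, and the median reads per cell were 1369416.5 to 1824596 against 845153 to 1223698, without overlap. Insulin genes took 47.6% to 56.2% of reads in P14L and 57.7% to 61.5% in G14.5. The β-cell label held: 9 of 10 β-cell markers were above 10 CPM (read counts scaled to a common library size) in every library of both groups. α-cell markers summed to 1261 to 2141 CPM in P14L and 995 to 1597 in G14.5, and 1 of the 587 cells, in P14L replicate 3, had over 5% of its reads in other islet hormones. Acinar markers summed to at most 3.08 CPM, with Prss1 and Ptf1a at 0 in both groups, and stromal markers to at most 1.67 CPM. Endothelial markers summed to 6.18 to 10.505 CPM in P14L and 1.68 to 4.49 in G14.5, and ductal markers to 478 to 540 and 341 to 534 CPM. Immune markers summed to 109 to 145 CPM in P14L and 77.1 to 145 in G14.5, with Ptprc, C1qb, Lyz2, Tyrobp and Cd3e at 0 in P14L. In addition, δ-cell markers summed to 89.3 to 231 CPM in P14L and 99.3 to 221 in G14.5, PP-cell markers to 263 to 980 and 198 to 567, and hepatocyte markers to 693 to 876 and 477 to 556. The part of any of these in the results was not tested. G14.5 libraries 1 and 3 stood apart in a way that touches this comparison: over 15335 genes, the deviation of a gene's level from its mean over the 35 libraries fell with the GC content of its transcripts, with Spearman's rho of -0.395 and -0.33 across genes. In G14.5 library 2 rho was -0.061, in the 3 P14L libraries 0.052 to 0.068, and in the other 29 libraries -0.14 to 0.12. The median log2 fold change of P14L against G14.5 ran from -0.31 in the tenth of genes with the lowest GC content to 0.31 in the tenth with the highest. With a curve of level against GC content as an offset for each library, the same medians were -0.00 and 0.03. Each result below is therefore also given with this GC offset where it changes a call or a count by over 1.5 times, and against G14.5 library 2 alone for the main genes. Whether the GC pattern is technical was not tested.

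**Figure D1:**
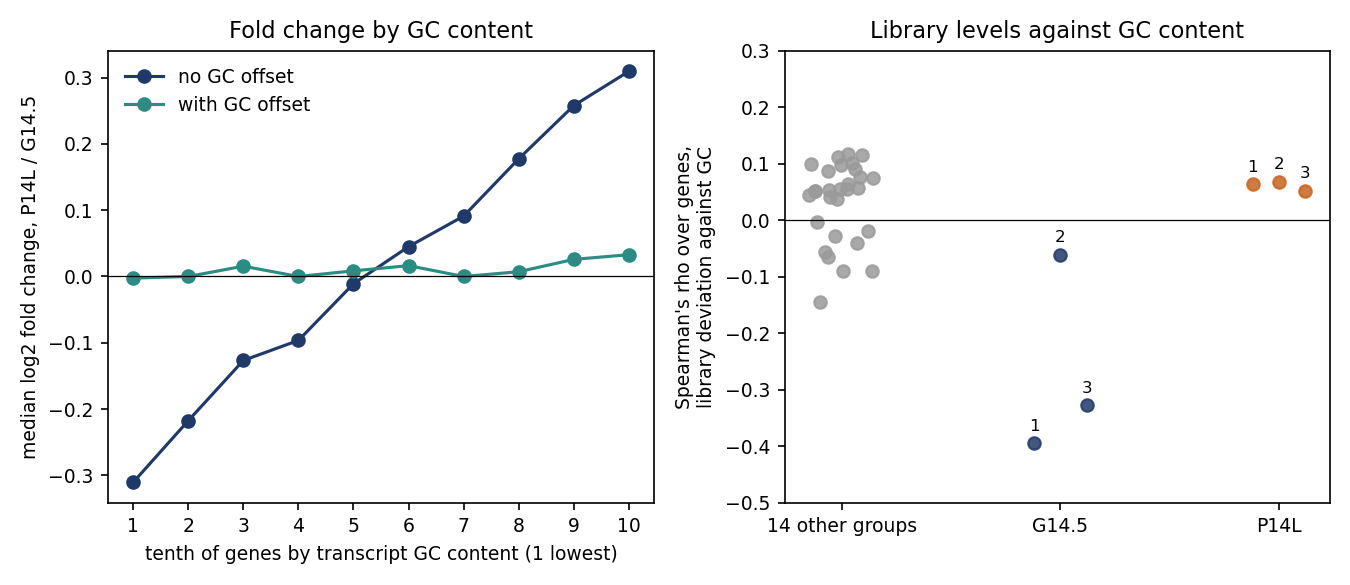
Left, median log2 fold change of P14L over G14.5 (vertical axis) in 10 equal groups of 15335 genes ordered by transcript GC content (horizontal axis), without and with a GC offset for each library. Right, Spearman's rho across genes between each library's deviation and GC content, 1 point per library: G14.5 libraries 1 and 3 lie at -0.395 and -0.33, and the other 33 libraries between -0.14 and 0.12.

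The promoters of 4 members are shown because their genes carry the main groups of results: Hspa5, Hsp90b1 and Dnajc3 encode ER chaperones and co-chaperones that were lower in P14L, and Prlr encodes the prolactin receptor. Capitals mark CCAAT followed after any 9 bases by CCACG, the ER stress response element bound by ATF6 with NF-Y, in the first 3, and TTCNNNGAA, the GAS element that STAT factors bind, in Prlr. Each was searched on both strands, in RefSeq promoters of GRCm38.p6 that run from 250 bases before to 50 after a start site. Sequences are written in the direction of transcription. The Prlr window lies inside the span of the gene given below, downstream of its first base. Whether these cells use that start site was not tested.
Hspa5, chr2:34771840-34772139, plus strand: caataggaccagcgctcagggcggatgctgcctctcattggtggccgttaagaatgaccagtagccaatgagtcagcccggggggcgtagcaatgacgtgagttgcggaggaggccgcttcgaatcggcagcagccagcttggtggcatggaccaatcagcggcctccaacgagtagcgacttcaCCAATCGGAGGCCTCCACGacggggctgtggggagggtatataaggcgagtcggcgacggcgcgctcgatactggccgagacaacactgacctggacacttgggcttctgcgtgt
Hsp90b1, chr10:86705395-86705694, minus strand: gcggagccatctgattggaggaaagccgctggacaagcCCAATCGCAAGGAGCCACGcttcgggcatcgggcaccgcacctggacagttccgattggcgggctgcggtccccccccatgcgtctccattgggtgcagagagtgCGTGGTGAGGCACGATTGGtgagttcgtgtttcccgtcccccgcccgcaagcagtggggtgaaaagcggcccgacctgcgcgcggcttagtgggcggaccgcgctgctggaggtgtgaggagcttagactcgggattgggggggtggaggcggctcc
Dnajc3, chr14:118937682-118937981, plus strand: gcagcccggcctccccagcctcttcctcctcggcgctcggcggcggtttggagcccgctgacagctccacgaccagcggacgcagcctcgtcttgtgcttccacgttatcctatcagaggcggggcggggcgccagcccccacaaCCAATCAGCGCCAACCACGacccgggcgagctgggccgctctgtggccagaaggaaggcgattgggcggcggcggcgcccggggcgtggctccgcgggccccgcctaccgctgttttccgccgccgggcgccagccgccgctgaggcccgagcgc
Prlr, chr15:10223656-10223955, plus strand: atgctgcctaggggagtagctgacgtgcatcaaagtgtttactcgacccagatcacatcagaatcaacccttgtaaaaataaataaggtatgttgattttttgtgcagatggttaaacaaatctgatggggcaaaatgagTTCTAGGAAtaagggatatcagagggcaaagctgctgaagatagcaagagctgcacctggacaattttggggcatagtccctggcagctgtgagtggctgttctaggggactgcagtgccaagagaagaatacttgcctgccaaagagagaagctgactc
The ER stress response element was in 39 of all 32851 promoters (0.119%) and in 9 of 32 promoters of the ER folding and unfolded protein response list (28.1%), those of Hspa5, Calr, Derl3, Hsp90b1, Canx, Pdia6, Dnajc3, Creld2 and Syvn1. None of the 24 promoters found for the list of proteins that act in ER entry held it. The GAS element was in 8.3% of all promoters and in 8 of 28 promoters (28.6%) of genes known from islets of pregnancy. By gene it was in 6 of 18 with a promoter: Ivd, Cish, Wipi1, Prlr, Bcl6 and Igfals. Bcl6 and Igfals each entered the promoter count more than once. A match describes letters in these windows and no binding was measured.

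Tph1 (chromosome 7, 46644641 to 46672537, minus strand, GRCm38), which catalyses the first and limiting step from tryptophan to serotonin in peripheral tissues, fell between the 2 stages but was higher than without lactation at the same day. Its levels were 22.9, 36.8 and 21.5 CPM in the P14L libraries and 88.4, 99.2 and 119 CPM in the G14.5 libraries. Every P14L library was below every G14.5 library. The log2 fold change was -1.91 (SE 0.49), with an adjusted p of 0.0132 by edgeR's quasi-likelihood test with Benjamini-Hochberg adjustment over 15373 genes. It was -1.78 with the GC offset (adjusted p 0.0306) and -1.87 against G14.5 library 2 alone (adjusted p 0.321). The call was lost without G14.5 replicate 3 (adjusted p 0.0651), without P14L replicate 1 (0.0701) and without P14L replicate 3 (0.0539), and the log2 fold change then ran from -1.81 to -1.77. Against P14NL, at 0.490 ± 0.319 CPM (SD, n = 2), Tph1 in P14L was higher by a log2 fold change of 5.81 (adjusted p 1.3e-05), and against G0, at 0.691 ± 0.212 CPM (n = 2), by 5.2 (adjusted p 4.9e-05). All these comparisons share the P14L libraries. In summed libraries fewer expressing cells and less RNA per cell cannot be told apart. The cell shares given below for Tph1 count cells with reads and do not settle this.

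Over the time course Tph1 averaged 0.691 CPM at G0, 0.738 at G3.5 and 1.02 at G5.5 (n = 2 each), reached 102 ± 15.3 CPM (n = 3) at G14.5 and 113 ± 40.6 (n = 2) at G16.5, and was 48.7 ± 20.8 (n = 3) at G18.5. In lactation it was 28.6 ± 8.28 CPM at P2L (n = 2), 18.1 ± 0.807 at P7L (n = 2) and 27.1 ± 8.46 at P14L (n = 3). P2L and P14L libraries overlapped, both P7L libraries (17.5 and 18.6 CPM) lay below them, and all 3 lactation groups lay above the NL group of their own day, at 5.41, 1.73 and 0.490 CPM. P14L did not differ from G18.5 by the test (log2 fold change -0.85, adjusted p 0.528). The G18.5 libraries ran from 25.7 to 66.3 CPM and overlapped P14L. The steps from G14.5 to G18.5 and to P2L were not tested.

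Taken cell by cell, the same reads that made up the sums also showed Tph1 lower in P14L. This direction is therefore not a separate check. With each cell thinned to 200000 reads, which left out 3 shallower cells of the 587, reads of Tph1 were found in 51.4%, 58.7% and 56.6% of P14L cells and in 79.2%, 83.0% and 86.0% of G14.5 cells. The groups did not overlap, and the difference was -27.1 percentage points. The exact permutation p was 0.1, the smallest that 3 libraries against 3 allow (0.6 after adjustment over the 15 genes examined this way). Without thinning the shares were 57.9%, 77.0% and 68.9% against 90.1%, 92.0% and 95.4%. In cells with reads, the median count after thinning was 3, 9 and 4.5 reads in P14L and 14, 14 and 15 in G14.5, so both the share of cells and the reads per positive cell were lower in P14L. At the same depth 3.61% and 3.64% of P14NL cells and 11.1% and 8.57% of G0 cells had a read, which sets the background for such shares. Of the other genes examined, Sftpd, surfactant protein D, had the next largest gap without overlap, 39.8% ± 8.89 of P14L cells against 60.03% ± 6.86 of G14.5 cells (n = 3 each, exact permutation p 0.1).

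Tph2, the neuronal tryptophan hydroxylase that is also induced in pregnant islets, was 3.93, 10.45 and 13.3 CPM in P14L and 20.2, 20.9 and 26.6 in G14.5. The groups did not overlap, and the log2 fold change was -1.28 (adjusted p 0.0498). With the GC offset the call was lost (-1.15, adjusted p 0.11). Of the 27 genes of serotonin synthesis, transport and reception, 15 passed the filter on low counts and 2 fell, Tph1 and Tph2, against 4.6% of all genes tested, and the median log2 fold change was -0.07. Ddc, which completes serotonin synthesis, was at 375, 311 and 358 CPM in P14L and 404, 422 and 441 in G14.5, a log2 fold change of -0.28 that did not pass the test (adjusted p 0.143). Only 3 of 14 serotonin receptor genes were tested and none was called.

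**Figure D2:**
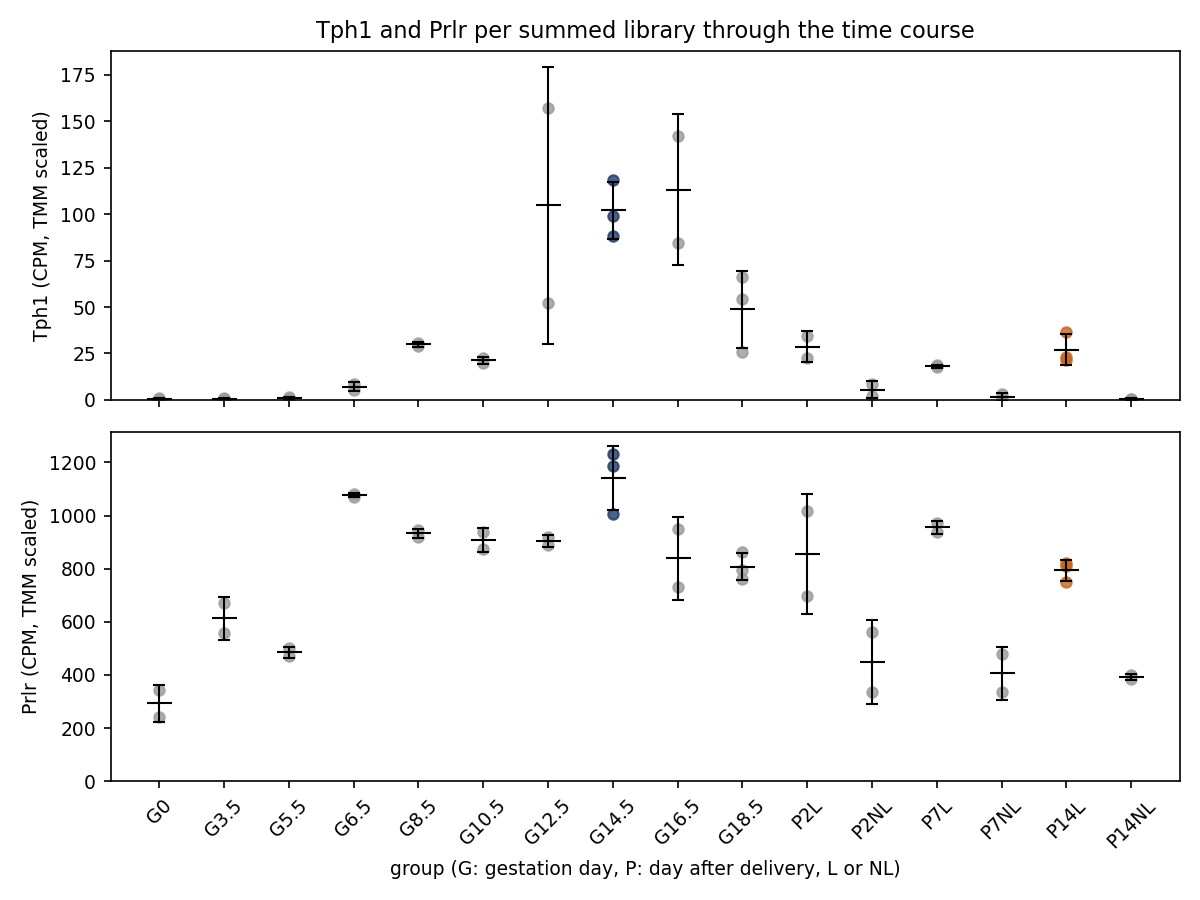
Tph1 (top) and Prlr (bottom) in CPM for each summed library (points) of the 16 groups in order of stage, with mean and SD as bars; G14.5 is blue and P14L orange. Tph1 in the P14L libraries lies at 21.5 to 36.8 CPM, below the G14.5 libraries at 88.4 to 119 and above P14NL at 0.490 on average, while Prlr in P14L is 794 CPM on average against 1142 at G14.5 and 391 in P14NL.

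Prlr (chromosome 15, 10177238 to 10349180, plus strand), the receptor for prolactin and placental lactogen, was at 823, 750 and 809 CPM in P14L and 1187, 1007 and 1233 in G14.5. Every P14L library was below every G14.5 library and the log2 fold change was -0.52 (SE 0.15, adjusted p 0.0278). With the GC offset the log2 fold change was -0.27 and Prlr was not called (adjusted p 0.323). Against G14.5 library 2 alone, a fit with fewer samples, the log2 fold change was -0.34. The call was also lost without any 1 library other than G14.5 replicate 2, with adjusted p up to 0.136. Prlr transcripts have a GC content of 42.7%, where the median over the genes tested was 50.3%. The part of GC content in the Prlr difference was not tested. Against P14NL (391 ± 10.8 CPM, n = 2) Prlr was higher in P14L by 1.02 (adjusted p 0.0012) and against G0 (293 ± 70.7 CPM, n = 2) by 1.44 (adjusted p 4e-06). From G18.5 (808 ± 51.6 CPM, n = 3) it differed by -0.02 (adjusted p 0.982).

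Downstream of the receptor, a feedback inhibitor fell. Socs2, a STAT5-induced inhibitor of cytokine receptors, was at 63.8, 96.2 and 71.4 CPM in P14L and 137, 125 and 146 in G14.5. All P14L libraries were below all G14.5 libraries, and Socs2 fell by 0.82 in log2 units (SE 0.18, adjusted p 0.00521, and 0.0176 with the GC offset). Cish, another STAT5 target of the same family, differed between P14L libraries, at 17.8, 150 and 16 CPM against 132, 233 and 129 in G14.5. P14L replicate 2 lay within the G14.5 range while replicates 1 and 3 lay near G0 (8.64 CPM) and P14NL (7.38 CPM), and the log2 fold change of -1.42 did not pass the test (adjusted p 0.0812). In the same reads taken cell by cell at equal depth, Cish was found in 56.8%, 100% and 68.9% of P14L cells.

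Over the 30 members of lactogen and cytokine signalling, 5 were called higher in P14L and 4 lower, against 4.53% and 4.6% of all genes, with a median log2 fold change of -0.00. Those higher were Stat5a (0.80), Tyk2 (0.64), Il6ra (0.65), Akt2 (0.47) and Pias3 (0.56). Those lower were Socs2, Prlr, Ptpn2 (-0.74), a phosphatase that acts on JAK and STAT proteins, and Socs6 (-0.61). With the GC offset Socs2 alone was called among the 30, near the shares over all genes in that fit (2.17% higher and 2.5% lower). Ghr, the growth hormone receptor, had a log2 fold change of 0.07 (adjusted p 0.788).

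Among the 30 genes known from islets of pregnancy or lactogen treatment, a list made of genes high in gestation, 29 were tested, 10 fell and none rose, against 4.6% and 4.53% of all genes, with a median log2 fold change of -0.81. All 16 members called against P14NL were instead higher in P14L (0.611% of all genes), and against G0 18 were higher and 1 lower (2.3% and 1.14%). With the GC offset 7 of the 10 were called, Tph2, Prlr and Fmo1 being lost, in a fit that called 2.5% of all genes lower. Chgb, chromogranin B of the insulin granule (chromosome 2, 132781278 to 132795079), was at 1838, 1961 and 2761 CPM in P14L and 3896, 4056 and 3861 in G14.5, without overlap. It fell by 0.85 in log2 units (SE 0.17, adjusted p 0.00172, and 0.000772 with the GC offset) and was 1.88 higher than in P14NL (adjusted p 8.9e-07). Tnfrsf11b, the decoy receptor osteoprotegerin, was at 12.6, 11.3 and 16.51 CPM against 53.6, 35.7 and 36.5, a log2 fold change of -1.64 (adjusted p 0.00074). Wipi1, an autophagy protein that binds phosphoinositides, fell by 1.19 (adjusted p 0.000583), and Ehhadh, a peroxisomal fatty acid oxidation enzyme, fell by 1.15 (adjusted p 0.000819). Ehhadh was also called against G14.5 library 2 alone (-1.48, adjusted p 0.00922). Ivd, isovaleryl-CoA dehydrogenase, showed the opposite case: 417, 434 and 361 CPM in P14L overlapped 394, 516 and 346 in G14.5 (log2 fold change -0.05, adjusted p 0.912), while it was 1.91 higher than in P14NL (adjusted p 3e-06).

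A gestation list was also taken from other cells, those of wild-type mice in the knockout experiments. In the 3 tables of the series that hold knockout mice, 132 genes were higher and 43 lower in wild-type G14.5 than wild-type G0 cells in at least 2 tables, and no cell of those tables had the same reads as a time-course cell. Of the 132 genes higher in gestation, 44 were lower and 1 higher in P14L than in G14.5, against 4.6% and 4.53% of all genes. The median log2 fold change was -0.43 against 0.00 over all genes. With the GC offset 26 were lower and 0 higher, against 2.5% and 2.17% of all genes (median -0.37). Without G14.5 replicate 3 the number lower was 15, where 201 of all 15337 genes tested were lower. It was 16 without P14L replicate 1 (283 of 15362) and 28 without G14.5 replicate 1 (379 of 15350). Against G14.5 library 2 alone the median was -0.41. Against P14NL 60 of the 132 were higher in P14L and 0 lower (0.611% and 0.111% of all genes). Against G0 85 were higher and 0 lower (2.3% and 1.14%), and against G18.5 0 were higher and 12 lower (0.15% and 0.403%). Calls over all genes against G18.5 fell from 85 to 3 without G18.5 replicate 3 and to 4 without P14L replicate 1. The mean log2 level of the 132 genes relative to G0 was 1.13, 1.24 and 1.36 in the P14L libraries, 1.60, 1.67 and 1.73 in G14.5, and 0.14 and 0.19 in P14NL. P14L thus lay between G14.5 and P14NL, without overlap, and nearer to G14.5.

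The members with the lowest p in that list were Znrf2, Acsl4, Abracl, Cmtm6 and Wipi1. Znrf2, a membrane-associated ubiquitin ligase (chromosome 6, 54816916 to 54893500), was at 62.2, 55.4 and 51.1 CPM in P14L and 153, 112 and 163 in G14.5. All P14L libraries were lower, with a log2 fold change of -1.34 (adjusted p 1.4e-06, SE 0.14), and the call held against G14.5 library 2 alone (-0.99, adjusted p 0.00922). Acsl4, which activates long-chain polyunsaturated fatty acids, fell by 0.98 (adjusted p 0.000321), Abracl fell by 0.83 (0.000321) and Cmtm6 fell by 0.94 (0.000523). Enpp2, the lysophosphatidic acid-producing enzyme autotaxin, was not called against G14.5 (0.11, adjusted p 0.765) but was 1.83 higher than in P14NL (1.2e-06).

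Of the 43 genes lower in gestation, 13 were higher and 3 lower in P14L than in G14.5 (median 0.30), against 4.53% and 4.6% of all genes. Under the offset 8 were higher and 4 lower, against 2.17% and 2.5%. The number higher was 8 when G14.5 replicate 1 was left out, where 262 of all 15350 genes tested were higher. It was 7 without G14.5 replicate 3 (204 of 15337) and 7 without P14L replicate 1 (299 of 15362). Against G14.5 library 2 alone the median was 0.18. Lrrc16b, a regulator of actin capping, was at 72.7, 54.6 and 57.7 CPM in P14L and 20.2, 41.2 and 19.8 in G14.5, a log2 fold change of 1.19 (adjusted p 0.000256). The groups did not overlap, and G14.5 library 2 was the highest of its group. Gstm1, a glutathione transferase, rose by 0.85 (0.000952) and Slc7a2, a cationic amino acid transporter, by 0.64 (0.0046). Lpl, lipoprotein lipase, was an exception: it fell by 0.88 (0.00305), from 64.3, 61.2 and 62.5 CPM to 34.0, 30.5 and 37.6.

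**Figure D3:**
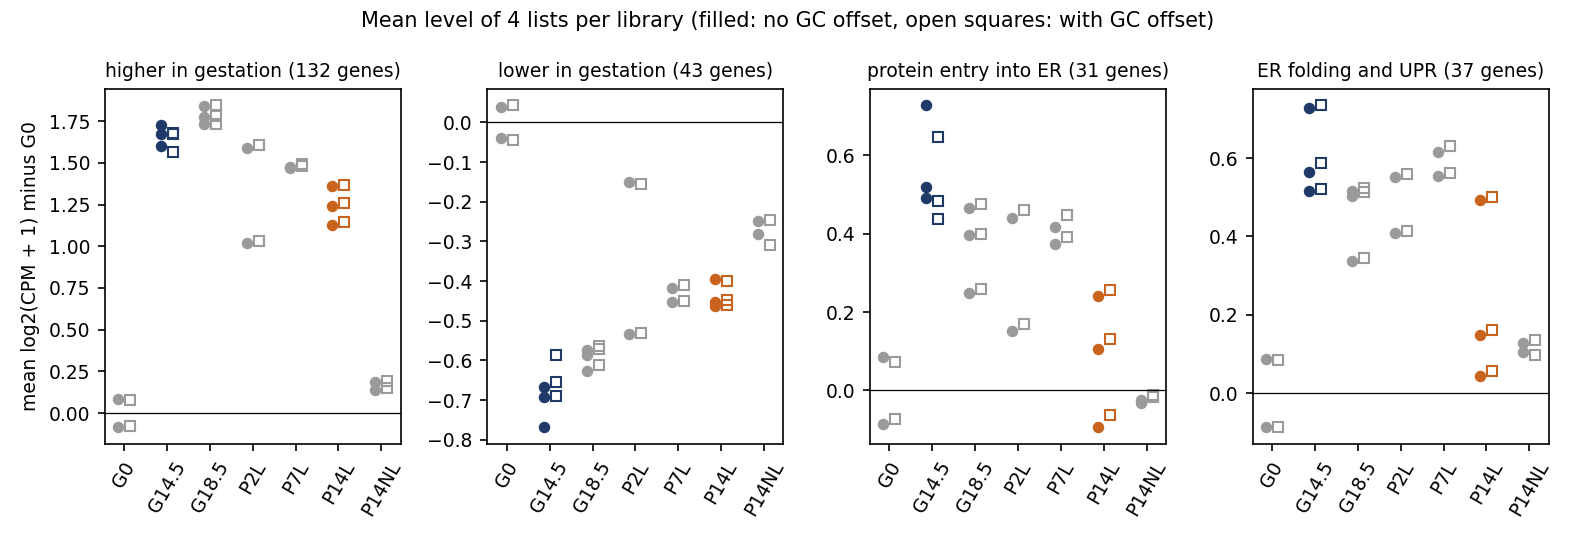
Mean log2(CPM + 1) minus the G0 mean (vertical axis) of 4 gene lists in each library of 7 groups (horizontal axis), as filled circles without and open squares with the GC offset; G14.5 is blue and P14L orange. The 3 P14L libraries lie below the 3 G14.5 libraries in the list of genes higher in gestation (1.13 to 1.36 against 1.60 to 1.73) and in protein entry into the ER (-0.09 to 0.24 against 0.49 to 0.73). For ER folding and the unfolded protein response the gap is narrow (0.04 to 0.49 against 0.52 to 0.73).

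Most genes of protein entry into the ER fell: the SEC61 translocon, signal recognition particle, signal peptidase, translocon-associated (SSR) proteins and oligosaccharyltransferase. Of 31 members 19 fell and none rose, against 4.6% and 4.53% of all genes tested, all 31 log2 fold changes were below 0, and the median was -0.55. Under the GC offset 15 fell and none rose, 30 were below 0 and the median was -0.40, against 2.5% of all genes called lower in that fit. Against G14.5 library 2 alone none of the 31 was called (0.0125% of all genes were higher and 0.0749% lower in that fit), 30 were below 0 and the median was -0.42. Stt3a, a catalytic subunit of oligosaccharyltransferase, was at 127, 158 and 174 CPM in P14L and 266, 256 and 291 in G14.5, without overlap, and fell by 0.83 (SE 0.14, adjusted p 0.000321, and 0.0131 with the GC offset). Signal peptidase subunits Sec11a (-0.80), Spcs3 (-0.68), Spcs1 (-0.65) and Spcs2 (-0.64) fell, as did Sec61g (-0.73) and Sec61b (-0.52) of the translocon, and Ssr1 (-0.79), Ssr2 (-0.59), Ssr3 (-0.76) and Ssr4 (-0.54). Each of these 11 genes kept its call with the GC offset. Sec62, Sec63, Tram1, Sec11c and Srp72 lost theirs, with adjusted p of 0.0509 to 0.182. The signal recognition particle subunit Srp19 was at 35.6, 52.9 and 43.8 CPM against 83.4, 67.0 and 119, a log2 fold change of -1.03 (adjusted p 0.00494). Ddost and Rpn2, other oligosaccharyltransferase subunits, had log2 fold changes of -0.24 and -0.27 and were not called, though Ddost was with the GC offset (-0.44, adjusted p 0.0253).

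Several ER chaperones and folding enzymes fell as well. In the list of ER folding and the unfolded protein response, 10 of 37 members fell and none rose, against 4.6% and 4.53% of all genes, and 12 fell with the GC offset, against 2.5%. The mean log2 level of this list relative to G0 was 0.04, 0.15 and 0.49 in the P14L libraries and 0.57, 0.52 and 0.73 in G14.5. P14L replicate 3 thus lay close to G14.5 replicate 2. Of the 10, 8 were among the 17 chaperones and folding enzymes, 2 among 11 degradation factors and 0 among 9 sensors and transcription factors. Manf, a secreted ER stress protein that supports β-cell survival (chromosome 9, 106838312 to 106891979), was at 195, 261 and 316 CPM in P14L and 571, 510 and 684 in G14.5. The groups did not overlap, and Manf fell by 1.19 in log2 units (SE 0.16, adjusted p 2.95e-05; with the GC offset -1.15, 7.78e-05). It was also called against G14.5 library 2 alone (-0.98, adjusted p 0.0389). Hspa5, the main ER chaperone BiP, whose promoter element is shown above (chromosome 2, 34771970 to 34777547), was at 504, 574 and 734 CPM in P14L and 1122, 1077 and 1280 in G14.5. It fell by 0.94 (SE 0.15, adjusted p 0.000299, and 0.00152 with the GC offset). Dnajb9 (-1.30), Dnajb11 (-0.93) and Dnajc3 (-0.65), J-domain partners of BiP, fell, as did Hsp90b1 (-0.71) and the disulfide isomerases Pdia4 (-0.74) and Pdia3 (-0.48). All but Pdia3 kept their calls with the GC offset. Ero1lb, the β-cell ER oxidase, did not differ by the test (log2 fold change -0.08, adjusted p 0.811), nor did P4hb (-0.12, 0.501). The sensor and effector gene Atf4 was at 141, 183 and 249 CPM against 246, 182 and 215, with overlap. Of the 9 genes with the ER stress response element in a promoter, Hspa5, Hsp90b1 and Dnajc3 were called lower, and Creld2 and Derl3 in the GC offset fit only (-0.67 and -0.94, adjusted p 0.014 and 0.0451).

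The levels over the time course place P14L among its neighbours. Hspa5 was 1160 ± 107 CPM at G14.5 (n = 3), 912 ± 158 at G18.5 (n = 3), 906 ± 109 at P2L (n = 2), 1001 ± 2.51 at P7L (n = 2), 604 ± 118 at P14L (n = 3) and 651 ± 120 at P14NL (n = 2). Manf ran from 588 ± 88.0 at G14.5 through 446 ± 58.9 at G18.5 and 497 ± 38.7 at P7L to 257 ± 60.5 at P14L and 270 ± 33.7 at P14NL. The mean log2 level of the ER entry list relative to G0 was 0.49 to 0.73 in the G14.5 libraries, 0.37 and 0.42 at P7L, -0.09, 0.11 and 0.24 at P14L and -0.03 and -0.02 at P14NL. P14L against P7L was not tested. Against P14NL no ER entry gene was called. Against G18.5 3 of 31 were lower and 0 higher (0.403% of all genes lower): Sec61g (-0.51), Sec11a (-0.62) and Ssr4 (-0.54). As given above, few calls against G18.5 remained without G18.5 replicate 3 or P14L replicate 1. Tph1, Prlr and Chgb were thus called higher in P14L than in P14NL, and none of the 31 ER entry genes was; the difference between these behaviours was not tested. Ins2 itself fell by 0.45 (adjusted p 0.0359; -0.69 and 0.00692 with the GC offset), while Ins1 overlapped (-0.33, 0.164). Leaving both insulin genes out of the counts changed the number of all called genes from 1403 to 1397.

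Some vesicle coat genes of the ER to Golgi route fell. Of 30 COPII, COPI and cargo receptor genes 9 fell and none rose (median -0.32), against 4.6% and 4.53% of all genes. In the GC offset fit, 4 fell, against 2.5%: Sec24d (-0.93), Sec23b (-0.81), Arf4 (-0.73) and Lman1 (-0.57). Sec24d, a COPII coat subunit, was at 42.1, 54.6 and 54.1 CPM in P14L and 90.0, 69.8 and 128 in G14.5, without overlap. Of 30 nuclear-encoded subunits of oxidative phosphorylation 7 fell and 1 rose (median -0.16), against the same shares. With the offset 3 fell and 0 rose, against 2.5% and 2.17%, namely Uqcrb (-0.80), Ndufa1 (-0.54) and Cox5b (-0.40). Sterol synthesis genes fell in 7 of 21 cases and rose in none (median -0.40), against 4.6% and 4.53%. In the GC offset fit 2 of the 21 were lower, against 2.5%, among them Dhcr7, the last enzyme of cholesterol synthesis (-0.92, adjusted p 0.0152 and 0.0136 with the offset).

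**Figure D4:**
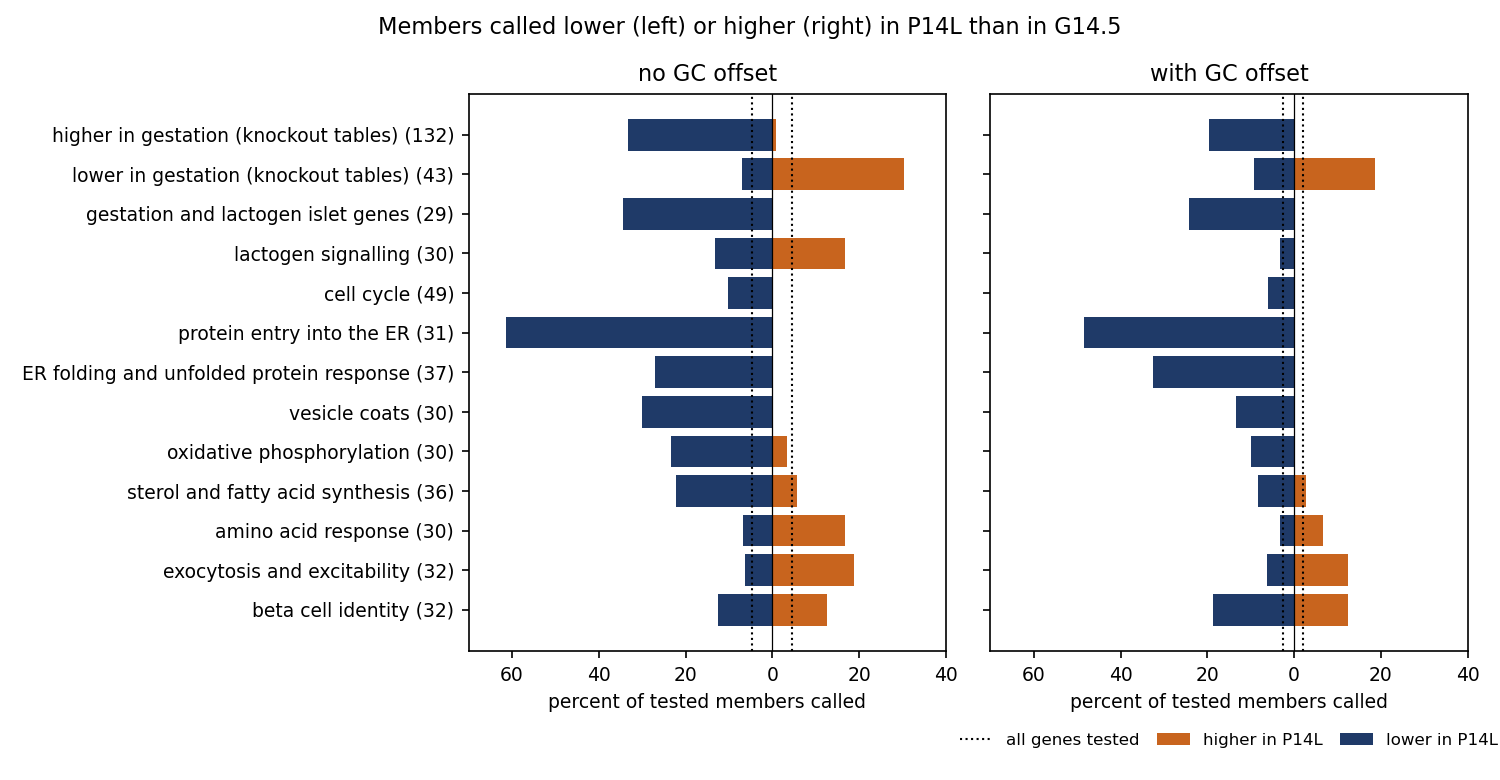
Percent of tested members (number in brackets) called lower (left of 0, blue) or higher (right of 0, orange) in P14L than in G14.5 for 13 lists, without (left panel) and with (right panel) the GC offset; dotted lines give the percent over all genes tested. Protein entry into the ER has 19 of 31 members lower without and 15 with the offset. Lactogen signalling keeps 1 called member of 9, near the share over all genes in that fit.

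Among cell cycle genes, the calls were in the G1 and S group. Of 49 members 5 fell and none rose, against 4.6% and 4.53% of all genes (median -0.77): Ccnd1, Pcna, Mcm6, Mcm2 and Ccne2. Ccnd1, cyclin D1 (chromosome 7, 144929931 to 144939925), was at 17.9, 18.8 and 27.5 CPM in P14L and 55.0, 44.8 and 66.9 in G14.5, without overlap. It fell by 1.38 (SE 0.19, adjusted p 5.9e-05, and 4.9e-05 with the GC offset). With the offset Ccnd1, Mcm6 and Mcm2 were called, against 2.5% of all genes, and Pcna was not (adjusted p 0.0543). None of 16 G2 and M genes was called, with a median log2 fold change of -1.39, and none of 11 inhibitors (median -0.10). The mean log2 level of the 49 genes relative to G0 was -0.53, 0.23 and -0.59 in P14L and 0.39, 0.56 and 0.22 in G14.5, with overlap. The G0 libraries themselves lay at -0.55 and 0.55. Mki67, a marker of dividing cells, was at 0.464, 7.24 and 0 CPM in P14L and 10.51, 13.5 and 8.79 in G14.5, with no overlap and a log2 fold change of -2.06 that did not pass the test (SE 1.43, adjusted p 0.403). P14L replicate 2 had the highest Cish, Socs2, Mki67 and Tph1 of the P14L libraries, but the lowest Prlr. Chgb, Tph2 and the mean of the 132 genes higher in gestation were highest in P14L replicate 3. Ccnd2, another cyclin D that β cells use, was at 892, 825 and 736 CPM against 932, 912 and 786, with overlap (log2 fold change -0.10, adjusted p 0.652).

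Several genes of excitability rose. Of 10 channel genes 5 rose and none fell (median 0.60), against 4.53% and 4.6% of all genes. After the GC offset 3 rose, against 2.17%: Abcc8, Cacna1c and Cacna1d. Abcc8, the SUR1 subunit of the KATP channel that sulfonylureas close (chromosome 7, 46104523 to 46180033), was at 673, 601 and 654 CPM in P14L and 349, 471 and 342 in G14.5. No P14L library fell within the G14.5 range, and Abcc8 rose by 0.73 (SE 0.10, adjusted p 2.95e-05; with the GC offset 0.50, 0.000421). Against G14.5 library 2 alone, the highest of the 3, the log2 fold change was 0.45 (adjusted p 0.203). The L-type calcium channel genes Cacna1c (1.00, adjusted p 0.000711) and Cacna1d (0.56, 0.0112) rose. Of 22 granule and fusion genes 2 fell, Chgb and Syt4, and 1 rose, against 4.6% and 4.53%.

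Of 32 β-cell identity genes 4 rose and 4 fell, against 4.53% and 4.6% of all genes, and with the GC offset 4 rose and 6 fell, against 2.17% and 2.5%. Gipr, the GIP receptor, was at 69.2, 60.2 and 61.2 CPM in P14L and 23.1, 53.2 and 21.8 in G14.5. G14.5 library 2 lay just below the P14L libraries and G14.5 libraries 1 and 3 far below. Gipr rose by 0.96 (adjusted p 0.00907, and 0.0201 with the GC offset). Against G14.5 library 2 alone it differed by 0.26 (adjusted p 0.831). Among transcription factors Rfx6 rose (0.62, adjusted p 0.0157) and Isl1 fell (-0.53, 0.00462), and both kept their calls with the offset. Ucn3, a maturity marker, was at 872, 652 and 809 CPM in P14L and 611, 685 and 606 in G14.5, with overlap (0.30, adjusted p 0.172), and Mafa was under 2 CPM in all 6 libraries. Acss2, the acetyl-CoA synthetase of the study's title, did not differ by the test, at 33.8, 39.7 and 28.9 CPM against 35, 36.2 and 35.3 (-0.05, adjusted p 0.878).

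Among nutrient genes, 5 of 30 of the amino acid response rose and 2 fell, against 4.53% and 4.6% of all genes. Under the GC offset 2 rose and 1 fell, against 2.17% and 2.5%. Ddit4, an inhibitor of mTORC1, was at 43.1, 39.8 and 51.0 CPM in P14L and 18.8, 25.0 and 22.9 in G14.5, without overlap, and rose by 1.01 (adjusted p 0.00387). Mlxipl, which encodes the glucose-responsive factor ChREBP, rose by 0.93 (adjusted p 0.00642), from 84.1, 157 and 86.0 CPM to 244, 197 and 183, and Pkm, pyruvate kinase, rose by 0.49 (0.00466). Both kept their calls with the GC offset, and G14.5 library 2 was in both the highest of its group. Of 15 tested genes of ChREBP and its targets 3 rose and none fell, against 4.53% and 4.6%, and 2 rose with the GC offset, against 2.17%. Txnip, a strongly glucose-induced gene, overlapped (-0.07, adjusted p 0.941). Of 15 fatty acid synthesis genes 2 rose and 1 fell, and of 25 fatty acid uptake and oxidation genes 1 rose, Acaa2, and 2 fell, Ehhadh and Lpl, both lists against 4.53% and 4.6%.

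Over all genes, 1403 of 15373 tested (9.13%) were called, 696 higher and 707 lower in P14L, and 717 (4.66%) with the GC offset, 333 higher and 384 lower. Called in both fits were 278 genes higher and 289 lower, 39.9% and 40.9% of the calls without the offset, and every one of the 1403 kept its sign. Against G14.5 library 2 alone 14 genes (0.0874%) were called, 2 higher and 12 lower, and 695 of the 696 and 697 of the 707 kept their sign. Library 2 is 1 of the 3 G14.5 libraries behind the 1403 calls, and the P14L libraries were the same. Of the called genes, 612 higher and 648 lower had no overlap between the groups. Their sign against library 2 could hardly change, so the kept signs are not a separate check. The groups did not overlap in 21.9% of all genes tested. Leaving out G14.5 replicate 1 gave 641 calls, G14.5 replicate 3 405 and P14L replicate 1 582. Calls against G18.5 numbered 85 (0.553%), against P14NL 111 (0.722%) and against G0 528 (3.43%), all with the same P14L libraries. The number against G18.5 rests on single libraries: it was 3 without G18.5 replicate 3, 4 without P14L replicate 1, 31 without P14L replicate 3 and 52 to 54 without any of the other 3. Against P14NL it was 48 and 56 without P14NL replicate 1 and 2, and against G0 196 without G0 replicate 2. Called genes higher in P14L had a median GC content of 55.9% and those lower 45.2%.

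The 12 lowest and 12 highest fold changes, among called genes of at least 10 CPM on average in 1 group without overlap, give the extremes. The lowest were Xlr3b (-2.83), Tph1, Atad2 (-1.68), Tnfrsf11b, Gadd45a (-1.58), Slc41a2 (-1.40), Ccnd1, Cks1b (-1.36), Znrf2, Dnajb9, Tph2 and Pak3 (-1.28). Of these 12, 10 kept their calls with the GC offset, while Tph2 and Slc41a2 (adjusted p 0.0511) did not. Xlr3b, of an X-linked lymphocyte-regulated gene family with near-identical copies among which reads may be split, was at 1.63, 2.65 and 0.437 CPM in P14L and 6.12, 11 and 16.6 in G14.5. Atad2 and Cks1b act in chromatin and the cell cycle, and Gadd45a in growth arrest and DNA repair. Pak3, a p21-activated kinase, was at 38.3, 59.4 and 48.5 CPM against 107, 102 and 145, and was also called against G14.5 library 2 alone (-1.06, adjusted p 0.0179).

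The highest were Pde4c (2.03), Angptl7 (1.96), Mlph (1.78), Rgs2 (1.52), Mapk15 (1.5), Tmem59l (1.48), Rgl2 (1.44), Fkbp5 (1.44), Dtx3 (1.42), Baiap2 (1.38), Eps8l2 (1.35) and Chd5 (1.35), and all 12 kept their calls with the GC offset. Pde4c, a cAMP phosphodiesterase, was at 14.8, 9.24 and 16 CPM in P14L and 3.22, 4.42 and 2.13 in G14.5. Rgs2, which damps G protein signalling, was at 53.7, 68.3 and 62.8 CPM against 24.9, 21.6 and 18.0, and was also higher than in P14NL (1.81, adjusted p 0.0166). Fkbp5, a glucocorticoid-induced co-chaperone, was at 52.4, 36.2 and 35 CPM against 16, 19.6 and 10.1. Mlph, melanophilin, a granule-tethering partner of Rab27a, was at 17.4, 9.20 and 11.3 CPM against 4.60, 2.44 and 3.96, and was called against G14.5 library 2 alone (2.38, adjusted p 0.0289).

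**Figure D5:**
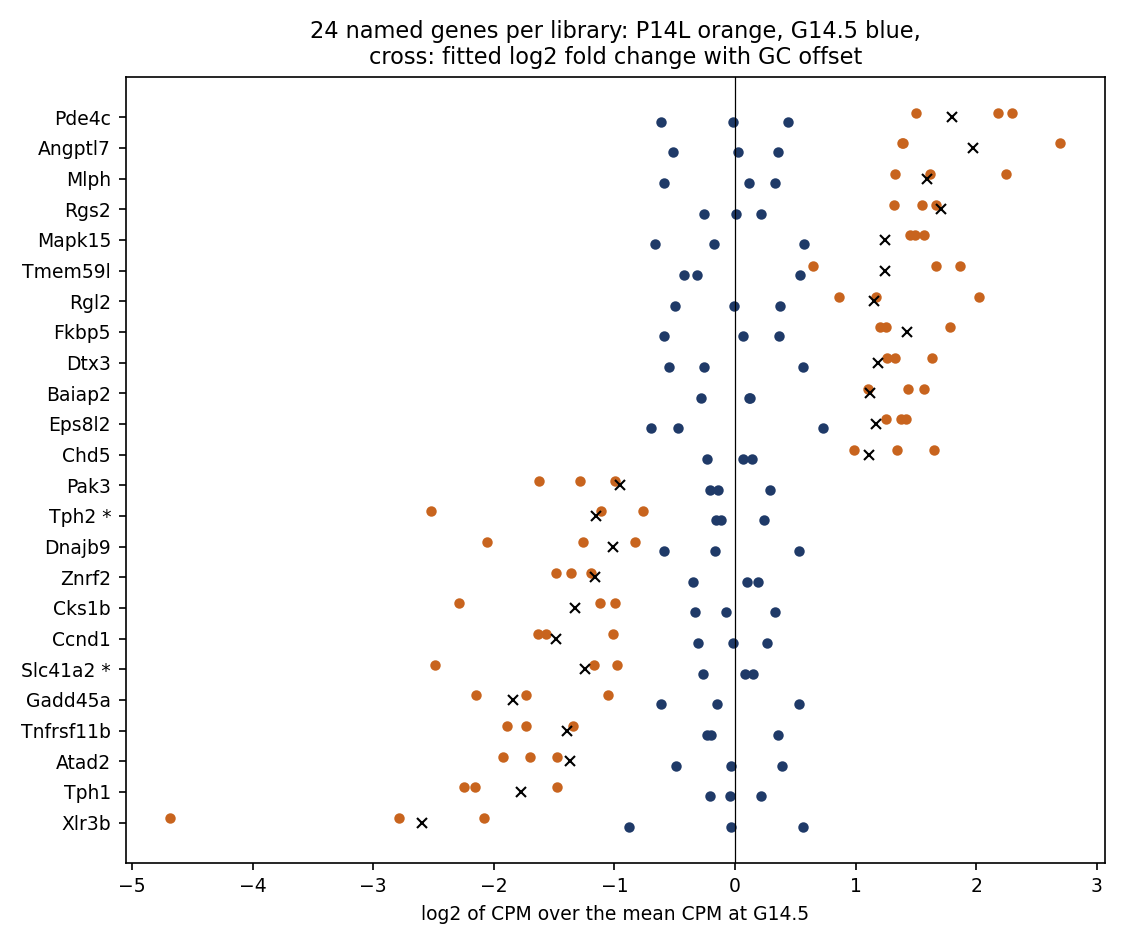
log2 of CPM over the mean CPM at G14.5 (horizontal axis) in each P14L (orange) and G14.5 (blue) library for 24 called genes, 12 at each extreme of log2 fold change; crosses give the fitted log2 fold change with the GC offset, and an asterisk marks the 2 genes not called with it. By the choice rule the 2 groups do not overlap in any of the 24 genes.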

How the data were processed

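Reads were counted in single sorted β cells of the pregnancy time course. The deposited values are raw read counts per gene and cell, and the submitters' processing notes list Trimmomatic 0.39, featureCounts 2.0.1 and Cell Ranger 3.1.0 with GRCm38 (mm10), without aligner, annotation or handling of duplicate reads, which the sources used here leave out. The authors also deposited normalized values of another unit, reads over gene length scaled so that all genes but Ins1 and Ins2 sum to 100000 per cell, which served as an alternative. Counts were summed over the cells of each replicate, and the 35 libraries of 16 groups were fitted in 1 model with edgeR 4.0.16 (R 4.3.3): TMM scaling, filterByExpr on groups and quasi-likelihood tests, with Benjamini-Hochberg adjustment over 15373 genes of 21767 and a gene called at an adjusted p under 0.05. Log2 fold changes are P14L over the other group, and SE is their size over the root of the F statistic. No column of per-sample values was unmapped. Whether samples with the same replicate number pair was checked by the correlation of their deviations from group means (-0.026, 0.051 and -0.0077). Between libraries of different numbers it ran from -0.066 to 0.062. No pairing was seen, but so few correlations cannot exclude a shared mouse, plate or day.

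GC content came from GENCODE transcripts by Ensembl ID (21490 of 21767 genes). The GC offset is a lowess curve (span 0.3) of log2 CPM minus the gene's mean over libraries against GC content, taken per library. It and the comparison with G14.5 library 2 alone were chosen after seeing the data. Alternatives were DESeq2 1.42.0, RLE factors, limma 3.58.1 on log2 of mean deposited normalized values plus 1, no filter on low counts, only the compared groups, no insulin genes, no cells with over 5% of reads in other hormones, and leaving out each replicate. The edgeR fit and the GC offset were tested on simulated counts with the same spread for every gene and, for the offset, a straight slope on GC content. Such counts cannot show whether the offset also removes real differences that go with GC content. For cell shares, cells were thinned to 200000 reads. Exact permutation tests were two-sided.

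The genes compared and the lists were chosen with earlier results of these data known. Named were 12 set genes (Tph1, Tph2, Prlr, Acss2, Ins1, Ins2, Mki67, Ucn3, Mafa, Cish, Socs2 and Chgb), the 12 highest and 12 lowest called genes with at least 10 CPM on average in 1 group and no overlap, and from each list up to 5 called members with the lowest p and 2 uncalled members with the highest CPM; other names were added after their values were seen. A list of 13 mitochondrially encoded genes and long nuclear RNAs meant as a quality check matched 0 genes of the table.

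Some genes of the lists are counted but their own values are not reported here.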

Additional observations from a re-analysis of the deposited data

How the results depend on the processing

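The 1403 calls against G14.5 moved to 14 against G14.5 library 2 alone, 717 with the GC offset, 765 with the GC offset and replicate block, 343 with only the 2 groups in the fit, 336 without replicate 3 of P14L, G14.5 and G18.5, and 405 to 2043 on leaving out single libraries. Library 2 alone also means fewer samples, and causes were otherwise not tested. Its libraries are all part of the main comparison, so a direction kept against library 2 alone is not a separate check. Against G18.5 the 85 calls became 290 with DESeq2, 404 with no filter on low counts, 28 with only the 2 groups, 6 without the 3 libraries numbered 3, and 3 to 54 on leaving out single libraries. Against P14NL the 111 became 249, 370 and 62 with DESeq2, no filter and only the 2 groups, and 48 to 119 without single libraries, and against G0 the 528 became 847, 855 and 182, and 196 to 514. With limma the split against G14.5 was 879 higher and 462 lower, against 696 and 707.

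The log2 fold change of Tph1 was -1.87 against library 2 alone and -1.65 without the libraries numbered 3 (adjusted p 0.136), and -2.20 to -1.77 without single libraries. That of Prlr was -0.34, -0.48 (adjusted p 0.196) and -0.61 to -0.47 under the same settings, -0.27 with the GC offset with or without the replicate block, and -0.40 with limma (adjusted p 0.111). Of the genes higher in gestation, the 44 lower in P14L became 2 against library 2 alone, 26 with the GC offset, 23 of 50 with genes called in all 3 knockout tables and 15 to 39 without single libraries. Of the genes lower in gestation, the 13 higher became 0, 8, 4 of 10 and 7 to 14. The difference in the share of Tph1 cells was -32.0 points at 5 or more reads and -28.9 to -25.0 without single libraries. Cry1 alone of 104 called named genes turned its direction, to 0.060 against library 2 alone. With the GC offset 75 of the 104 stayed called, with DESeq2 102, with limma 90, without the libraries numbered 3 49, and against library 2 alone 6.

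The replicate block gave 1378 calls against G14.5, 111 against G18.5, 98 against P14NL and 473 against G0, with Tph1 at -1.98 and Prlr at -0.52, and 5 of the 104 named genes lost their call. The correlations of same-numbered libraries showed no pairing of samples but cannot exclude it. Median depth was 845153 to 1824596 reads per cell, and what limits precision most was not tested. An exact test of 3 libraries against 3 cannot go below an exact p of 0.1, and P14L replicate 1 holds 38 cells.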

Other observations

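Clock genes changed in both directions. Of 19 members tested 2 rose, Cry2 and Tef, and 2 fell, Nfil3 and Cry1, with and without the GC offset (of all genes 4.53% rose and 4.6% fell without it, 2.17% and 2.5% with it). Nfil3, a repressor of clock output, was at 3.30, 7.12 and 9.77 CPM in P14L and 15.5, 12.55 and 18 in G14.5, and fell by 1.18 on the log2 scale (adjusted p 0.00475). Cry2, a clock repressor, was at 63.8, 42.0 and 74.8 CPM against 26.6, 44.5 and 23.7, where G14.5 library 2 overlapped the P14L libraries, and rose by 0.93 (adjusted p 0.00517). Cry1 was at 5.06, 4.67 and 3.29 CPM against 10.2, 4.17 and 17.4, with G14.5 library 2 within the P14L range, and its log2 fold change of -1.29 (adjusted p 0.0293) became 0.060 against that library alone. The labels state no time of day for collection, and its part was not tested.

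Of 24 interferon-stimulated genes none was called with or without the GC offset, against 4.66% and 9.13% of all genes. So few genes cannot set this count apart from those shares. Of 35 immediate early and heat shock genes 3 rose and 2 fell, near the shares over all genes (4.53% and 4.6%). In the GC offset fit Rgs2 rose and Hspe1 fell, 1 each, also near those shares (2.17% and 2.5%). Hspa1b, an inducible heat shock gene, was at 15.2, 3.17 and 0.316 CPM in P14L and 0.166, 0.672 and 0.491 in G14.5, with overlap and the highest value in P14L replicate 1. Of 36 genes of acetyl-CoA supply and histone acetylation 7 rose and 2 fell, against 4.53% and 4.6% of all genes. Under the GC offset the counts were near the shares over all genes (2.17% and 2.5%): 1 rose, the acetyltransferase gene Kat7, and 2 fell, Brd2, a reader of acetylated histones, and Acly, which makes acetyl-CoA from citrate. Of 18 genes that mature β cells hold low, 1 fell, Oat, ornithine aminotransferase, at 0.341, 0.229 and 0.759 CPM against 6.29, 0.854 and 4.26 (log2 fold change -3.10, adjusted p 0.00521), and none rose. That is near the 4.6% of all genes that fell.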
